A study of Mus musculus with 2 samples.

Results

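Transcripts of 5 genes, the Fc gamma receptors Fcgr1 (ENSMUSG00000015947), Fcgr2b (ENSMUSG00000026656), Fcgr3 (ENSMUSG00000059498) and Fcgr4 (ENSMUSG00000059089) and their shared signalling chain Fcer1g (ENSMUSG00000058715), were measured in immune and endothelial cells of mouse liver metastases. They are 5 of the 56941 features in the count tables and were taken by symbol, with earlier results of these data known. All 5 were detected. CD45+ cells were enriched from liver lesions of C57BL/6 mice, aged 6 to 8 weeks at injection, and profiled by droplet-based 3′ single-cell RNA sequencing 2 weeks after MC38-LM3b cells, a liver-metastatic derivative of the mouse colorectal cancer line MC38, had been injected into the spleen. In the Ctrl group the tumor cells carried a scrambled hairpin (shScramble), and in the KD group a hairpin against SLAMF3 (shSLAMF3), the receptor encoded by Ly9. The hairpins were in the tumor cells and not in the host cells that are described here. Lesions of 3 mice were pooled into the 1 library of each group. Replicate error is therefore unknown, differences were not tested, and the 95% intervals given cover counting error only.

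Fc gamma receptors bind the constant part of IgG and let cells read antibody that has coated a target. Fcgr1, Fcgr3 and Fcgr4 are activating receptors, which sit in the membrane together with the Fcer1g chain, whose ITAM motif recruits the kinase Syk. Fcgr2b is the inhibitory receptor, which carries its own ITIM motif and recruits the phosphatase Inpp5d (SHIP1). Macrophages are known to carry all of these receptors, mouse NK cells chiefly Fcgr3, B cells chiefly Fcgr2b, and sinusoidal endothelial cells of the liver use Fcgr2b to take up small immune complexes.

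The stretches of 250 bases before the transcription start of the receptor genes are shown because Fcgr4 and Fcgr1 were lower and Fcgr2b was higher in KD macrophages. All are from RefSeq on GRCm38.p6, written 5′ to 3′ along the gene's own strand and ending at the base before the start, and the capitals mark matches to the motifs searched on both strands, GAGGAA (the core of PU.1-type ETS sites), TTCNNNGAA (GAS) and a pair of GAAA with any 2 bases between them (ISRE type). Fcgr1 lies on the minus strand (chr3:96293970-96294219), Fcgr3 on the minus strand (chr1:171059404-171059653, the more upstream of its 2 starts), Fcgr4 on the plus strand (chr1:171018676-171018925) and Fcgr2b on the minus strand (chr1:170976072-170976321).
Fcgr1: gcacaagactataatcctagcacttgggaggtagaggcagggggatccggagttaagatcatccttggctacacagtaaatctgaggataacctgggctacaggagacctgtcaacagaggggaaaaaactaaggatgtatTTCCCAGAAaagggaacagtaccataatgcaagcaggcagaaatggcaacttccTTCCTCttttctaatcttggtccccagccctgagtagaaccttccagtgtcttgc
Fcgr3: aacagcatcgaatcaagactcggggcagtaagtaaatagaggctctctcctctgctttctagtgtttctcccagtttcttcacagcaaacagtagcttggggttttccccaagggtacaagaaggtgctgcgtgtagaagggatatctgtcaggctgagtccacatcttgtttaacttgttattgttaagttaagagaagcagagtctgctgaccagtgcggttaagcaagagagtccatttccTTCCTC
Fcgr4: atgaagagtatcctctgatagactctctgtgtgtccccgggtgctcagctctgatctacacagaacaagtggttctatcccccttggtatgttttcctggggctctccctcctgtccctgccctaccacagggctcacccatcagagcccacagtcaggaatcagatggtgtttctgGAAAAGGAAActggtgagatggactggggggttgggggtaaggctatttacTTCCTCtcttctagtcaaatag
Fcgr2b: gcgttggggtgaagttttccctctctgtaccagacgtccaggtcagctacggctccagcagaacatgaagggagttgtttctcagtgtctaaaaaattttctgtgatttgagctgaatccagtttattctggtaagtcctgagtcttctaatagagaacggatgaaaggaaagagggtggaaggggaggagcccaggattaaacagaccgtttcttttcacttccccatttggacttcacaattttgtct
The ETS letters, read as TTCCTC, were found from base -55 to -50 in Fcgr1, from -6 to -1 in Fcgr3 and from -22 to -17 in Fcgr4. The window of Fcgr1 also held TTCCCAGAA, a match to GAS, from -109 to -101, and that of Fcgr4 held GAAAAGGAAA, a match to the ISRE type, from -73 to -64. None of the 3 motifs was found in the windows of Fcgr2b and Fcer1g (chr1:171234350-171234599, minus strand). Among 32851 windows of the same length from 27025 genes, 23.3% held the ETS letters, 7.02% the GAS letters and 2.98% the ISRE-type letters. A match is a description of these letters, and binding was not measured.

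After filtering, 9814 Ctrl cells and 10185 KD cells remained, with a median of 5411.5 and 4989 UMIs (a UMI is a molecular tag that lets each captured transcript be counted once), and 27 of 21359 barcodes occurred in both libraries. Ly9 itself was at 21.0 CPM (UMIs per 1000000 UMIs of the same cells, interval 19.9 to 22.1) in Ctrl and 18.8 CPM (17.7 to 19.9) in KD over all cells. In the class with tumor or fibroblast markers only 12 and 7 Ly9 UMIs were found, so these data do not check the knockdown in the tumor cells. Classes were built from clusters made without the 5 genes and named from fixed markers, so that macrophages, for example, stands for macrophage-like cells throughout. In every class the UMIs of its cells were summed per library, and a log2 ratio is KD over Ctrl of the CPM.

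The 5 genes were ordered differently across the cell classes. Fcgr1, the high-affinity IgG receptor, was at 255 CPM (249 to 262) in Ctrl macrophages and 210 CPM (168 to 259) in Ctrl Kupffer cells, the resident macrophages of the liver, whose intervals overlapped. It was at 38.3 CPM (30.6 to 47.4) in conventional dendritic cells (cDCs) and at 18.4 CPM or less in every other Ctrl class. Fcgr3, a low-affinity activating receptor, was at 394 CPM (386 to 403) in macrophages, 388 CPM (330.3 to 453) in Kupffer cells and 315 CPM (289.9 to 342) in granulocytes. It was at 49.1 CPM (40.3 to 59.2) in cDCs and 40.1 CPM (24.5 to 61.9) in NK cells, which could not be told apart, and at 21.7 CPM or less elsewhere in Ctrl. Fcgr3 is thus the activating receptor whose level in granulocytes lay nearest to that in macrophages in both libraries.

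Fcgr4, an activating receptor of intermediate affinity, was highest in Kupffer cells, at 899 CPM (809.9 to 995) in Ctrl and 593 CPM (534 to 658) in KD. Macrophages followed with 609 CPM (599 to 619) in Ctrl and 337 CPM (329.7 to 345) in KD, and granulocytes with 403 CPM (375 to 434) and 148 CPM (139 to 157). The intervals of these 3 classes did not overlap within either library. Fcer1g, the adaptor, was at 4685 CPM in macrophages, 4174 CPM in Kupffer cells and 3732 CPM in granulocytes of Ctrl, then at 1762 CPM in NK cells, 1325 CPM in plasmacytoid dendritic cells (pDCs) and 1115 CPM in cDCs. In the remaining Ctrl classes it lay between 139.5 CPM in T cells and 326 CPM in endothelial cells. In KD the order of the first classes differed, with 3615 CPM in macrophages, 3400 CPM in granulocytes and 3091 CPM in Kupffer cells.

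Fcgr2b, the inhibitory receptor, had another order, with endothelial cells first. These were at 2177 CPM (2092 to 2264) in Ctrl and 1803 CPM (1763 to 1844) in KD, and macrophages at 442 CPM (434 to 451) and 569 CPM (558 to 579). B cells, cDCs, pDCs and granulocytes lay between 84.8 and 58.6 CPM in Ctrl, and each of these 4 had an interval that overlapped with that of its neighbour in the order. Kupffer cells were at 43.4 CPM (25.7 to 68.6) in Ctrl and 44.8 CPM (29.5 to 65.1) in KD, below macrophages in both libraries with intervals that did not overlap. NK cells were at 18.0 CPM (8.24 to 34.2) and T cells, the lowest class, at 5.41 CPM (4.44 to 6.52) in Ctrl.

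**Figure D1:**
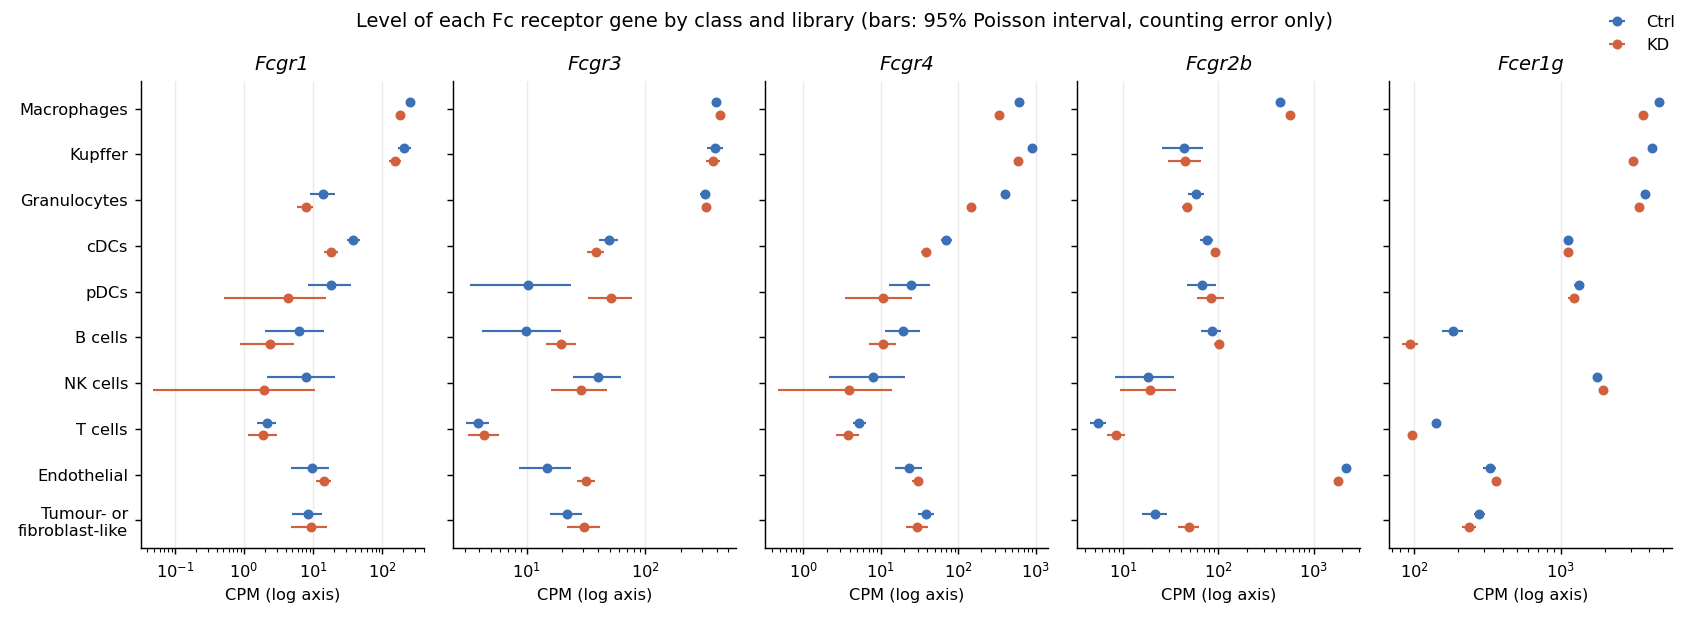
Level of each gene in 10 cell classes, with CPM on a log axis whose range differs between panels, Ctrl in blue and KD in orange, and bars as 95% Poisson intervals. Fcgr2b peaks in endothelial cells, at 2177 and 1803 CPM, while Fcgr1, Fcgr3 and Fcgr4 peak in macrophages and Kupffer cells. Fcer1g peaks in macrophages, and in KD it is higher in granulocytes than in Kupffer cells.

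Macrophages, the largest class, held most of the UMIs of every member. In Ctrl, 82.2% of all Fcgr1 UMIs, 78.3% of Fcgr3, 76.9% of Fcgr4, 66.1% of Fcgr2b and 76.4% of Fcer1g UMIs came from macrophages. In KD these shares were 81.1%, 66.4%, 70.6%, 52.2% and 60.2%. Endothelial cells held 16.6% of the Fcgr2b UMIs in Ctrl and 33.2% in KD, with 150 and 645 cells, and granulocytes held 5.02% of the Fcgr3 UMIs in Ctrl and 16.9% in KD, with 753 and 2125 cells. Over all cells Fcgr2b was at 235 CPM in Ctrl and 378 CPM in KD, a log2 ratio of 0.69 (0.66 to 0.72), against 0.36 within macrophages.

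In droplet data, free RNA gives UMIs in cells that do not make a transcript. T cells, which had the lowest level of each Fc gamma receptor gene in Ctrl, were used as the reference. At 1500 UMIs per cell, 0.187% of Ctrl and 0.202% of KD T cells held an Fcgr1 UMI, 0.842% and 0.674% an Fcgr3 UMI, 0.935% and 0.674% an Fcgr4 UMI, and 1.12% and 1.55% an Fcgr2b UMI. Before thinning, the median depth of T cells was 8365 and 5311 UMIs. Per 100 UMIs of the complement genes C1qa, C1qb and C1qc, which macrophages make, T cells held 3.59 UMIs of Fcgr1 and 8.92 of Fcgr4 in Ctrl, and macrophages held 3.50 and 8.35. Fcer1g was different, with 235 UMIs per 100 C1q UMIs in Ctrl T cells and 64.2 in macrophages, and 14.5% of thinned Ctrl T cells held an Fcer1g UMI. For Fcgr2b the values were 9.09 in Ctrl and 12.8 in KD T cells, against 6.07 and 8.93 in macrophages, and for Fcgr3 6.51 and 6.64 against 5.41 and 6.71. The activating receptors of T cells thus stood in nearly the same proportion to C1q as in macrophages. The shares of T cells with an Fcgr1, Fcgr3 or Fcgr4 UMI were read as background. This reading was not made for Fcer1g, nor for Fcgr2b, which was higher per C1q UMI in T cells than in macrophages.

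The first comparison asked how the 5 genes of host macrophages differed between lesions of Ctrl and KD tumor cells. Macrophages, 3103 in Ctrl and 2551 in KD, had less Fcgr4 and Fcgr1 and more Fcgr2b in KD, while Fcgr3 differed little. Fcgr4 went from 609 to 337 CPM (13707 and 7216 UMIs), a log2 ratio of -0.85 (-0.89 to -0.81). Fcgr1 went from 255 CPM to 183 CPM (177 to 188), a log2 ratio of -0.48 (-0.54 to -0.42). Fcgr2b went from 442 to 569 CPM (9963 and 12159 UMIs), a log2 ratio of 0.36 (0.32 to 0.40).

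Fcgr3 was at 394 CPM in Ctrl and 427 CPM in KD, a log2 ratio of 0.12 (0.07 to 0.16). The adaptor Fcer1g went from 4685 to 3615 CPM, a log2 ratio of -0.37 (-0.39 to -0.36). Only Fcgr4 passed a 1.5-fold change with an interval that left out 0, among 11128 genes with at least 100 UMIs in macrophages of which 7.68% were lower and 5.73% higher by the same rule. With 1 library a group, intervals that leave out 0 were common, since 25.5% of all these genes were lower and 26.4% higher by that rule alone. The median log2 ratio of all genes was 0.01, and 3.77% of genes had a lower log2 ratio than Fcgr4, 10.1% a lower one than Fcgr1 and 12.8% a higher one than Fcgr2b.

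The share of macrophages with a UMI was compared at 1500 UMIs per cell, since the median depth was 6317 UMIs in Ctrl and 7786 in KD. Fcgr4 was seen in 50.2% (48.4 to 52.0) of Ctrl and 35.4% (33.5 to 37.3) of KD macrophages, and Fcgr1 in 29.5% (27.9 to 31.1) and 22.8% (21.2 to 24.5). Fcgr2b was seen in 43.3% (41.5 to 45.1) and 51.1% (49.2 to 53.1), and Fcgr3 in 40.6% (38.9 to 42.4) and 44.4% (42.4 to 46.4). Fcer1g was seen in 98.0% and 98.1%, so that nearly every macrophage of both libraries held the adaptor at this depth. Without thinning the shares were 82.7% and 74.3% for Fcgr4, 78.7% and 90.2% for Fcgr2b and 80.6% and 88.2% for Fcgr3. The difference in the share with Fcgr3 depended on the depth, with 3.75 percentage points at 1500 UMIs, 0.888 at 1000 UMIs and 7.57 without thinning.

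**Figure D2:**
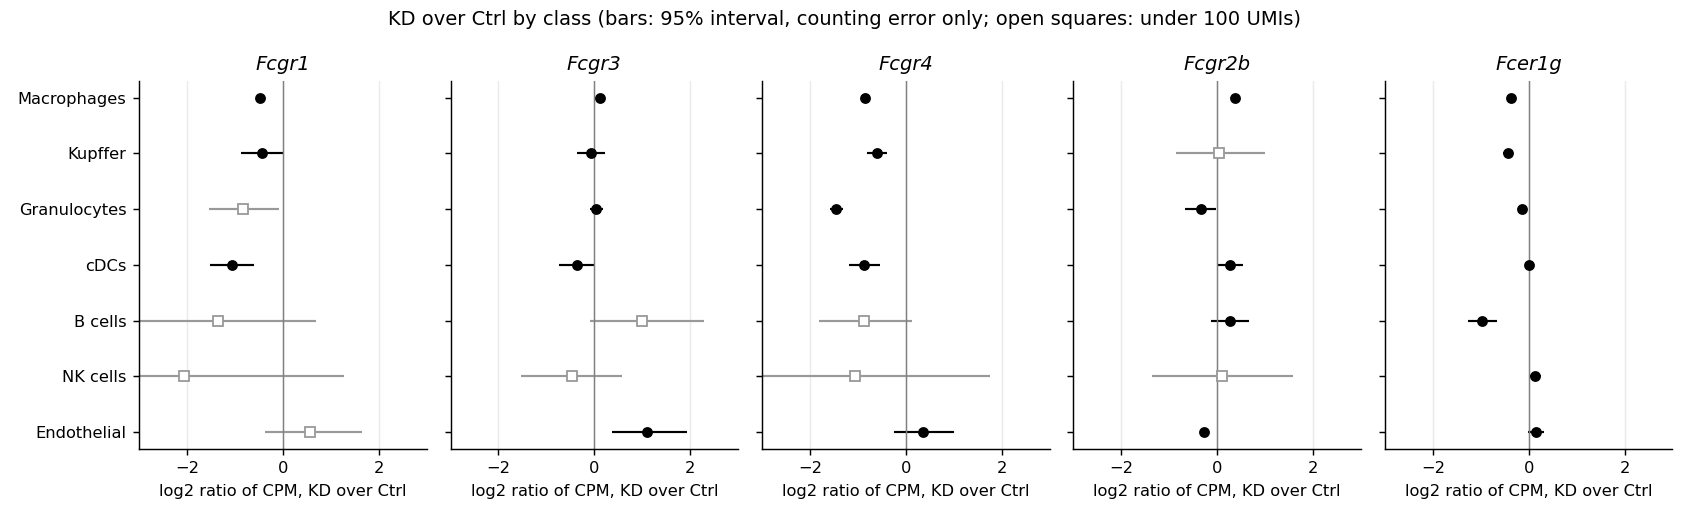
Log2 ratio of CPM, KD over Ctrl, of each gene in 7 cell classes, with bars as 95% intervals for counting error (cut at -3 where they run further) and open squares where both libraries together had under 100 UMIs. Fcgr4 lies below 0 in macrophages, Kupffer cells, granulocytes and cDCs, and Fcgr2b above 0 in macrophages.

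The balance of activating and inhibitory receptors was given as the UMIs of Fcgr1, Fcgr3 and Fcgr4 per UMI of Fcgr2b. It is a ratio of counted RNA and not of protein, and only its change between libraries is meaningful, since the 3′ assay may not count all genes equally well. In macrophages it fell from 2.84 (2.78 to 2.91) in Ctrl to 1.67 (1.63 to 1.70) in KD, a log2 ratio of -0.77 (-0.82 to -0.73). Fcgr4 alone per Fcgr2b went from 1.38 to 0.593, Fcgr1 alone from 0.577 to 0.321, and Fcgr3 alone from 0.892 to 0.752. All 3 activating genes were therefore lower relative to Fcgr2b in KD, Fcgr4 by the most.

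The same UMIs were also counted cell by cell, which restates the values above and is no separate evidence. Among macrophages thinned to 1500 UMIs, 40.8% (39.0 to 42.5) of Ctrl and 32.8% (30.9 to 34.6) of KD cells held activating UMIs without an Fcgr2b UMI. Cells with Fcgr2b UMIs and no activating UMI were 8.58% (7.61 to 9.64) in Ctrl and 14.9% (13.5 to 16.3) in KD. Cells with both were 34.7% (33.0 to 36.5) and 36.3% (34.4 to 38.2), and cells with neither 15.9% and 16.1%, which differed by less than their intervals. At this depth a cell without a UMI may still express the gene.

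**Figure D3:**
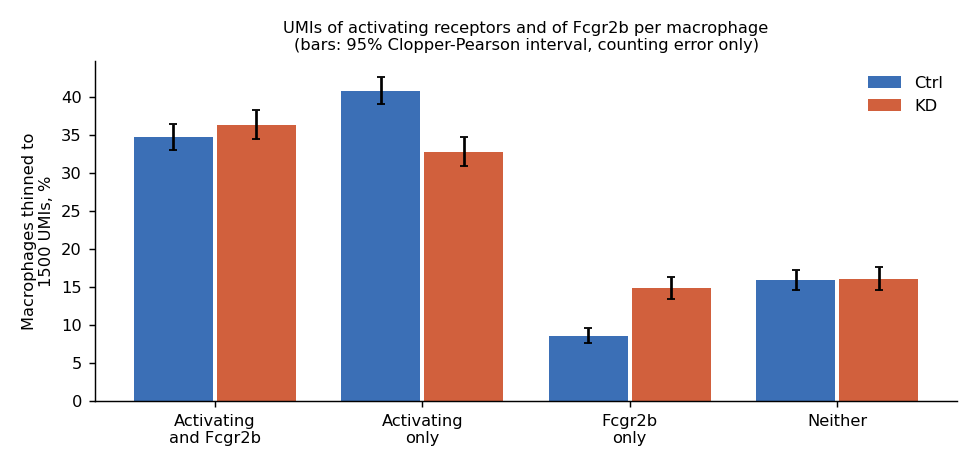
Share of macrophages, thinned to 1500 UMIs, that held UMIs of an activating receptor gene, of Fcgr2b, of both or of neither, in percent, with Ctrl in blue, KD in orange and bars as 95% Clopper-Pearson intervals. The cells with activating UMIs only make up 40.8% of Ctrl and 32.8% of KD, and those with Fcgr2b only 8.58% and 14.9%.

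The make-up of the macrophages differed between the 2 libraries. The sub-cluster led by Mmp12 and Ccl8 held 28.1% of Ctrl and 42.1% of KD macrophages, the one led by Upp1, Ly6i, Isg15 and Cxcl9 held 29.2% and 7.41%. Cycling cells, led by Pclaf and Top2a, were 13.8% and 4.90%. A sub-cluster led by Vcan and Chil3, genes of monocytes, held 12.6% and 17.1%, and one led by Cxcl1, Il1a and Il6 held 15.0% and 12.1%. A further one, led by Ltc4s and Pf4, was almost confined to KD, with 9 Ctrl and 352 KD cells, and its KD cells had Fcgr2b at 575 CPM and Fcgr4 at 268 CPM. The first 5 had at least 50 cells in each library and allowed a comparison within a sub-cluster.

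Fcgr4 was lower and Fcgr2b higher in KD within all 5 of these sub-clusters, with intervals that left out 0. For Fcgr4 the log2 ratios ran from -1.30 in the cycling cells to -0.28 in the Vcan-led cells, and for Fcgr2b from 0.16 in the Upp1-led cells to 0.45 in the Vcan-led cells. In the Mmp12-led cells Fcgr4 went from 745 CPM (725 to 765) to 447 CPM (434 to 460) and Fcgr2b from 523 CPM (506 to 540) to 683 CPM (667 to 699). The Vcan-led cells had the lowest Fcgr4 of the 5 sub-clusters, with 154 CPM in Ctrl and 127 CPM in KD.

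Fcgr1 was lower in KD in 4 of the 5 sub-clusters, and in the Upp1-led cells it was at 341 CPM (326 to 357) and 309.6 CPM (278 to 344), with an interval that held 0. Fcgr3 was higher in the Mmp12-led cells, at 434 and 501 CPM, and its interval held 0 in the other 4. Fcer1g was lower in all 5, by log2 ratios between -0.49 and -0.07. Activating UMIs per Fcgr2b UMI fell in each of the 5, from 2.76 to 1.71 in the Mmp12-led, from 3.13 to 2.31 in the Upp1-led, from 2.35 to 1.56 in the Vcan-led, from 2.32 to 1.37 in the Cxcl1-led and from 3.12 to 1.80 in the cycling cells. With KD levels reweighted to the make-up of Ctrl sub-clusters, the log2 ratio of Fcgr1 was -0.29 in place of -0.48, over 1.5 times smaller, and that of Fcgr4 -0.79. A further cluster, of 949 Ctrl and 355 KD cells, held macrophage markers but was led by Cadm1 and was left unnamed. It had Fcgr4 at 469 and 262 CPM and Fcgr2b at 362 and 511 CPM.

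**Figure D4:**
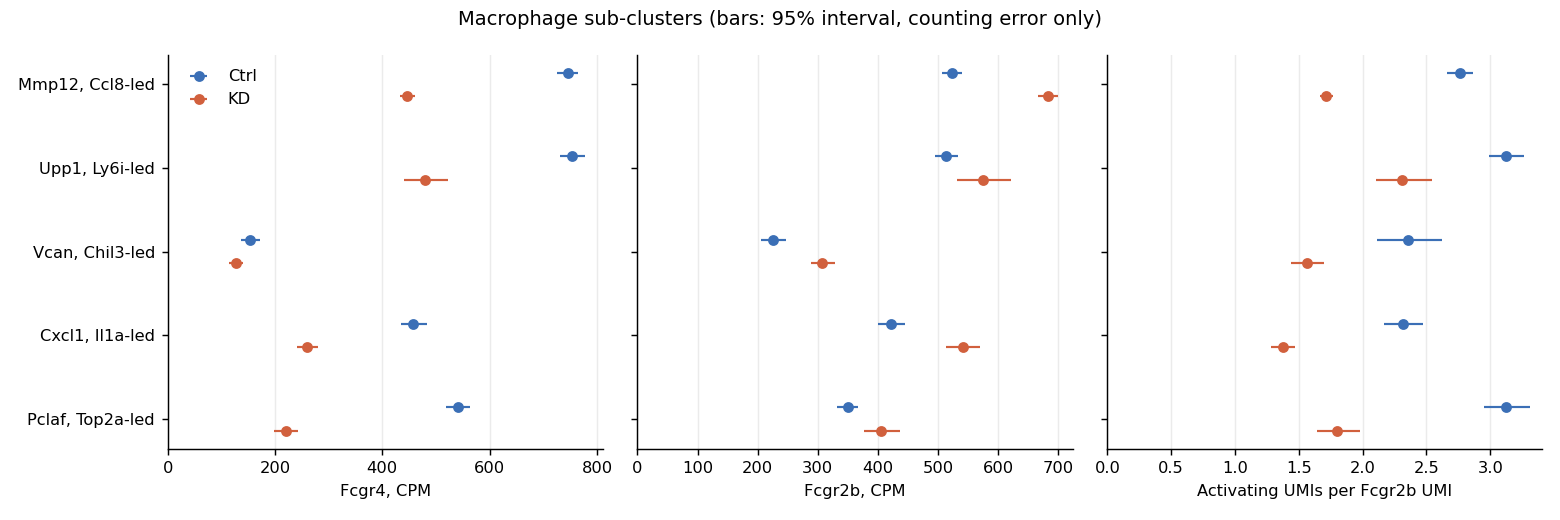
Fcgr4 (CPM), Fcgr2b (CPM) and activating UMIs per Fcgr2b UMI in the 5 macrophage sub-clusters with at least 50 cells in each library, Ctrl in blue and KD in orange, with bars as 95% intervals for counting error. In every row Fcgr4 and the ratio are lower in KD and Fcgr2b is higher.

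Genes that mark the response to interferon were also lower in KD macrophages. The list Cxcl9, Cxcl10, Gbp2 and Gbp5 summed to 3755 CPM in Ctrl and 1422 CPM in KD macrophages, a log2 ratio of -1.40 (-1.42 to -1.38), and all 4 genes were lower. It was lower in KD in all 5 sub-clusters, by log2 ratios from -2.01 in the Vcan-led cells to -0.75 in the Upp1-led cells. The order was not that of Fcgr4, which fell least in the Vcan-led cells, at -0.28. Fcgr4 fell most in the cycling cells, at -1.30, where the interferon list was at -1.13. The list Ltc4s, Pf4, Ccl24 and Retnla went the other way, from 66.7 to 470 CPM. The cycling genes Top2a, Mki67, Stmn1 and Pclaf were lower as a sum, at a log2 ratio of -0.96. The sum of Nos2, Il1a, Cxcl2 and Ptgs2 was at -0.19, and that of Mmp12, Mgl2, Ccl8 and Cd72 at -0.15. The part of any of these lists in the Fc receptor values was not tested.

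Kupffer cells, 47 in Ctrl and 81 in KD, had less Fcgr4 and Fcer1g in KD. They are marked by Clec4f, Vsig4, Cd5l and Marco. They also held Cdh5, a gene known from endothelial cells, at 260.2 and 335 CPM, against 810 and 713 CPM in endothelial cells. Stab2 was at 41.0 and 38.1 CPM in Kupffer cells, against 1711 and 2848 CPM, and Clec4g at 2.41 and 34.8 CPM, against 1493 and 1727 CPM. S100a8, a gene of granulocytes, was at 12.05 CPM in Ctrl and 822 CPM in KD Kupffer cells. Fcgr4 went from 899 to 593 CPM, a log2 ratio of -0.60 (-0.81 to -0.39), the only member past 1.5-fold of the 4 that reached 100 UMIs, where 10.2% of 1712 tested genes were lower by this rule. This lay close to the limit, and the value fell short of 1.5-fold with the stricter cell filter (-0.58), median-of-ratios scaling (-0.55), thinning (-0.49) and equal weight per cell (-0.41). Without likely doublets Fcgr4 was at -0.90 and Fcer1g at -0.61, which also passes 1.5-fold, and thinning put Fcer1g at -0.21. Fcer1g had a log2 ratio of -0.43 (-0.53 to -0.34) and Fcgr1 one of -0.44 (-0.88 to -0.0049), from 210 to 154 CPM. Fcgr3 was at 388 and 369.7 CPM, with an interval that held 0. Of the 18 Ctrl UMIs of Fcgr2b 9 came from 1 cell, and 7 of 47 Ctrl and 17 of 81 KD cells held any. Kupffer cells held 0.342 and 0.370 Fcgr2b UMIs per 100 C1q UMIs, against 6.07 and 8.93 in the other macrophages.

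Granulocytes, 753 in Ctrl and 2125 in KD, differed most in Fcgr4. It went from 403 CPM (729 UMIs) to 148 CPM (1063 UMIs), a log2 ratio of -1.45 (-1.59 to -1.31), in a class where 13.7% of 5454 genes were lower and 18% higher by at least 1.5-fold. After thinning, 40.4% (36.6 to 44.3) of Ctrl and 19.8% (18.1 to 21.6) of KD granulocytes held an Fcgr4 UMI, from median depths of 2168 and 2865 UMIs. Fcgr3 was at 315 CPM (289.9 to 342) and 324 CPM (311 to 338), with a log2 ratio of 0.04 (-0.09 to 0.17), and Fcer1g at 3732 and 3400 CPM, a log2 ratio of -0.13 (-0.17 to -0.10). Fcgr1 was nearly absent from this class, with 25 UMIs in Ctrl and 56 in KD. The median log2 ratio of all genes was 0.14 here, and relative to it Fcgr4 was at -1.59, Fcer1g at -0.28 and Fcgr3 at -0.10, on the other side of 0.

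The make-up of the class differed between the libraries, and Fcgr4 was lower in KD in each of its 5 sub-clusters by its point value. A sub-cluster led by Cxcl10, Ifit2 and Gbp5 held 56.4% of Ctrl and 5.32% of KD granulocytes, and it had the highest Fcgr4 in both, at 621 CPM (569.8 to 675.5) and 381 CPM (313 to 459.8). A sub-cluster led by Arf2 and Saa3 held 11.0% and 37.5%, with Fcgr4 at 229 CPM (163 to 313) and 175 CPM (157 to 194). One led by Prok2 and Retnlg held 2.39% and 27.1%, with 18 Ctrl cells. Its Fcgr4 was at 330.1 CPM (207 to 499.7) in Ctrl and 114 CPM (101 to 129) in KD, a log2 ratio of -1.53 (-2.16 to -0.83). Where each library had 40 cells or more, which was so in 4 sub-clusters, the interval of Fcgr4 left out 0 in the Cxcl10-led one, at a log2 ratio of -0.70 (-1.02 to -0.40), and held 0 in the other 3, with ratios between -0.50 and -0.29. Reweighting KD to the Ctrl sub-clusters, chosen after the data were seen, gave -0.64 for Fcgr4 in place of -1.45.

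Fcgr2b of granulocytes, at 58.6 CPM (48.0 to 70.9) and 46.2 CPM (41.3 to 51.4), had a log2 ratio of -0.35 (-0.66 to -0.02). It turned to 0.42 with the same reweighting. At a clustering resolution of 1.0 it was 0.11, but there no sub-clusters were left out. A granulocyte cluster of 35 Ctrl and 86 KD cells then also held B cell markers such as Cd79a and Ms4a1. Fcgr3 was higher in KD within the Arf2-led cells, from 170 CPM (114 to 244) to 312 CPM (287 to 337), and within the Fosb-led cells, from 315 CPM (266 to 369) to 385 CPM (350 to 423). The interferon list above summed to 3989 CPM in Ctrl and 556 CPM in KD granulocytes, a log2 ratio of -2.84, and its part in Fcgr4 was not tested.

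**Figure D5:**
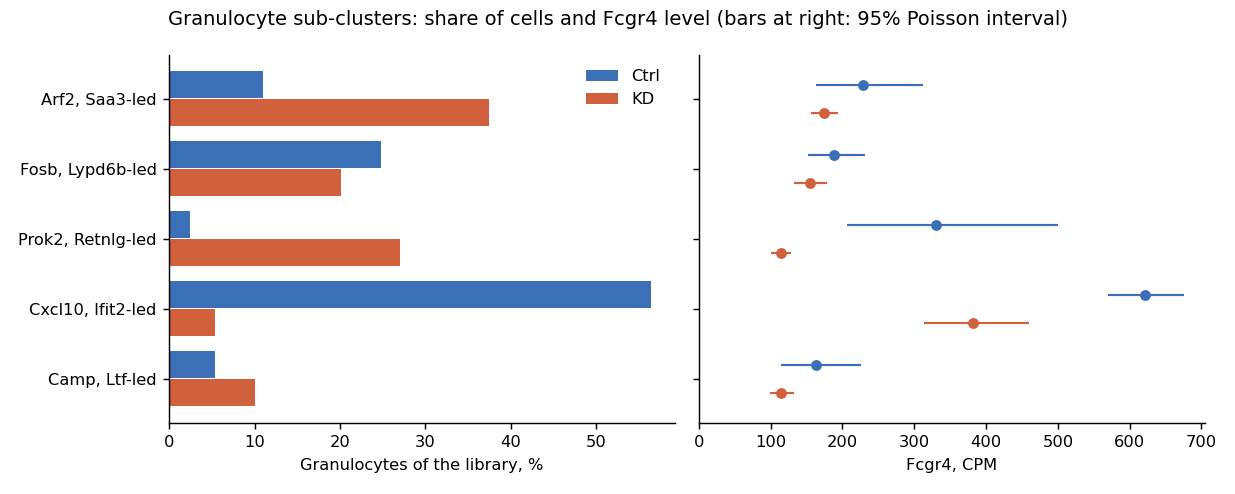
Share of each library's granulocytes in 5 sub-clusters (percent, left) and the level of Fcgr4 in them (CPM, right) with 95% Poisson intervals, Ctrl in blue and KD in orange. The Cxcl10-led cells, with the highest Fcgr4, make up 56.4% of Ctrl and 5.32% of KD granulocytes.

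In cDCs, 298 in Ctrl and 461 in KD, Fcgr1 and Fcgr4 were lower in KD. Fcgr4 went from 70.7 to 38.8 CPM, a log2 ratio of -0.87 (-1.19 to -0.54), and Fcgr1 from 38.3 to 18.4 CPM, a log2 ratio of -1.05 (-1.52 to -0.59). These were 2 of the 5 members, in a class where 4.26% of 6478 genes were lower by at least 1.5-fold. Fcgr2b was at 75.7 CPM (64.7 to 88.0) and 91.7 CPM (82.6 to 101), a log2 ratio of 0.28 (0.01 to 0.55) that turned to -0.05 where classes came from each cell's own marker UMIs and was 0.72 after thinning. The value of Fcgr4 moved likewise, to -1.54 and -0.37. Fcgr3 went from 49.1 to 38.1 CPM, and Fcer1g was at 1115 and 1119 CPM, with an interval that held 0. Its log2 ratio was -0.53 with classes from each cell's own marker UMIs. C1q transcripts, which mark macrophages, were at 209.9 CPM in Ctrl and 89.2 CPM in KD cDCs. Per 100 C1q UMIs, cDCs held 18.2 and 20.7 UMIs of Fcgr1 and 33.7 and 43.5 of Fcgr4, against 3.50 and 2.87 and 8.35 and 5.30 in macrophages.

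Among the cDC sub-clusters that were kept, Fcer1g was highest in the one led by Cd209a, a gene of the cDC2 type, at 1837 and 1740 CPM. This sub-cluster had Fcgr2b at 96.8 CPM (77.6 to 119) in Ctrl and 129 CPM (114 to 146) in KD. In Ctrl, Fcgr2b was at 81.4 CPM (59.8 to 108) in a sub-cluster led by Pclaf and H1f5. It was at 92.0 CPM (51.5 to 152) in one led by Fscn1 and Cacnb3, and these intervals overlapped. In KD the latter 2 were at 72.7 CPM (56.3 to 92.3) and 4.07 CPM (0.103 to 22.7). The Pclaf-led cells were marked by Cd3d, Cd3e, Cd3g, Klre1 and Eomes, genes of T and NK cells. Of the fixed cDC markers only Xcr1 marked them, so their values may not be those of cDCs alone. The sub-cluster that held Clec9a and Xcr1, genes of the cDC1 type, had Fcgr2b at 35.2 CPM (20.1 to 57.1) and 55.1 CPM (41.3 to 72.1), and Fcer1g at 294 and 243 CPM. In pDCs the 4 receptor genes had between 2 and 39 UMIs each in a library. Fcgr3 of pDCs had 5 Ctrl and 24 KD UMIs.

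B cells, 272 in Ctrl and 873 in KD, carried Fcgr2b, the only Fc gamma receptor known to act in them. It was at 84.8 CPM (66.0 to 107) and 101 CPM (89.3 to 115), with 69 and 253 UMIs and a log2 ratio of 0.26 (-0.13 to 0.66). At 1500 UMIs per cell, 14.5% (10.3 to 19.6) of Ctrl and 15.0% (12.6 to 17.7) of KD B cells held an Fcgr2b UMI. T cells were at 1.12% and 1.55%, which were not read as background for this gene. No B cell held over 5 Fcgr2b UMIs. The median depth of B cells was 2562 UMIs in Ctrl and 2588 in KD. B cells held 34.0 Fcgr2b UMIs per 100 C1q UMIs in Ctrl and 63.9 in KD, against 6.07 and 8.93 in macrophages.

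Fcer1g was at 183 CPM (155 to 215) in Ctrl and 93.8 CPM (82.1 to 107) in KD B cells, a log2 ratio of -0.97 (-1.27 to -0.66), where 4.04% of 4627 genes were lower by at least 1.5-fold. It stood at 73.4 and 59.1 UMIs per 100 C1q UMIs, near the 64.2 and 56.8 of macrophages, and C1q itself was at 249.6 and 159 CPM. At 1500 UMIs per cell, 16.2% (11.8 to 21.4) of Ctrl and 11.5% (9.38 to 13.9) of KD B cells held an Fcer1g UMI, beside 14.5% and 11.1% of T cells, which are no background level for this gene. The part of free RNA in the Fcer1g of B cells was not tested. With classes from each cell's own marker UMIs its log2 ratio was -0.22. Fcgr1, Fcgr3 and Fcgr4 had between 5 and 49 UMIs in B cells of either library, and of the 49 KD UMIs of Fcgr3 11 came from 1 cell.

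NK cells, 141 in Ctrl and 131 in KD, carried the adaptor and little else. Fcer1g was at 1762 CPM (1648 to 1883) and 1935 CPM (1818 to 2059), a log2 ratio of 0.14 (0.0032 to 0.27), and was seen in 90.2% and 89.6% of cells at 1500 UMIs, from median depths of 3437 and 3849 UMIs. It was the only member with at least 100 UMIs, and 9.68% of 1829 tested genes were past 1.5-fold in either direction. Fcgr3, the receptor through which NK cells kill antibody-coated targets, had 20 UMIs in Ctrl and 15 in KD, or 40.1 CPM (24.5 to 61.9) and 29.0 CPM (16.2 to 47.7), a log2 ratio of -0.47 (-1.54 to 0.57). At 1500 UMIs per cell 9.02% (4.59 to 15.6) and 5.60% (2.28 to 11.2) of NK cells held an Fcgr3 UMI, against 0.842% and 0.674% of T cells, so the transcript was above background in Ctrl and KD. A difference between libraries was not detectable at this depth. With the cells that hold a Cd3 UMI added back, the log2 ratio was 0.16.

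Endothelial cells, 150 in Ctrl and 645 in KD, came through the CD45+ selection and held all 6 fixed markers of liver sinusoids. Stab2 was at 1711 and 2848 CPM and Clec4g at 1493 and 1727 CPM. Fcgr2b had 2500 Ctrl and 7748 KD UMIs and was seen in 91.9% (85.6 to 96.0) and 89.4% (86.5 to 91.8) of cells at 1500 UMIs, from median depths of 7079.5 and 6234 UMIs. Its level was lower in KD by a log2 ratio of -0.27 (-0.34 to -0.21), under 1.5-fold, where 7.75% of 7017 genes were lower by at least 1.5-fold. In cells with at least 3 UMIs of sinusoidal markers, 138 and 613, it was at 2192 and 1811 CPM.

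Activating receptors were low in endothelial cells. Fcgr3 had 17 UMIs in Ctrl and 137 in KD, a log2 ratio of 1.11 (0.38 to 1.93), the only member past 1.5-fold, where 6.68% of genes were higher by this rule. It did not hold its direction, with -1.47 once likely doublets were left out, -0.76 with classes from single cells' markers and -0.08 after thinning. Beside it, S100a8, a defining gene of granulocytes, was at 6.10 CPM in Ctrl and 471 CPM in KD endothelial cells, and C1q at 394 and 598 CPM. Fcer1g, at 326 and 361 CPM, stood at 82.6 and 60.4 UMIs per 100 C1q UMIs, near the values of macrophages.

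Few other genes of the pathway passed 1.5-fold in macrophages. Of 68 genes in 6 lists (other Fc receptors, IgG heavy chains, ITAM adaptors and kinases, downstream activation, the inhibitory arm, and other receptors paired with Fcer1g), 46 had at least 100 UMIs in macrophages, 2 were higher and 0 lower by at least 1.5-fold, and their median log2 ratio was 0.02, beside 0.01 for all genes. The share of all genes past this limit in either direction was 13.4%. The interval left out 0 for 20 of the 46 genes above it, where 26.4% of all genes were, and for 13 below it, where 25.5% of all genes were.

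The 3 highest were Cd300a, an inhibitory receptor with ITIM motifs, from 105 to 195 CPM with a log2 ratio of 0.89 (0.82 to 0.96), Blnk, a signalling adaptor known from B cells, from 10.2 to 18.3 CPM with 0.84 (0.61 to 1.09), and Dok2, an adaptor that restrains kinase signalling, with 0.42 (0.34 to 0.49). The 3 lowest were Fyn, a Src-family kinase, at -0.49 (-0.55 to -0.42), Trim21, a cytosolic antibody receptor, at -0.41 (-0.73 to -0.10), and Vav1, an exchange factor for Rac, at -0.40 (-0.51 to -0.29). Syk, the kinase that the ITAM of Fcer1g recruits, was at 257 CPM in Ctrl and 333 CPM in KD, with 0.37 (0.32 to 0.42), and Inpp5d, the phosphatase recruited by Fcgr2b, at 189 and 213 CPM with 0.17 (0.11 to 0.23). Tyrobp, the other ITAM adaptor of myeloid cells, was at -0.10 (-0.13 to -0.08), against -0.37 for Fcer1g. Syk, Inpp5d and Tyrobp were chosen for their roles after the values were seen.

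In granulocytes 9 list genes were higher and 5 lower by at least 1.5-fold, of 38 tested, where the share of all genes was 31.7% in either direction. In cDCs it was 0 of 33, beside 7.61% of all genes, in endothelial cells 8 of 26, all higher, beside 6.68% of all genes, and in Kupffer cells 3 of 24 (Fyn, Vav3 and Cblb), all lower, beside 10.2% of all genes. The endothelial ones included Tyrobp, from 88.8 to 134 CPM, and Fgr, Clec4e and Clec4d, which myeloid cells are known to express, where S100a8 went from 6.10 to 471 CPM, and its part in them was not tested. Kupffer and endothelial genes are named here after their values were seen. In NK cells Dok2 alone passed, of 21 tested and beside 2.84% of all genes that were higher, from 55 to 86 UMIs with a log2 ratio of 0.59 (0.09 to 1.11). In B cells Tyrobp (-0.66, -1.09 to -0.22) and Pik3cg (-0.60, -1.16 to -0.02) were lower among 33 tested, of which 3 were lower and 2 higher, beside 4.04% and 1.97% of all genes. C1q was also lower in KD B cells, at 249.6 CPM in Ctrl and 159 CPM in KD. The part of free RNA in the Tyrobp of B cells was not tested.

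The IgG heavy chain genes, whose products the receptors bind, also passed in B cells, but a few cells carried them. Ighg1 had 902 UMIs in Ctrl, of which 688 came from 1 cell, and 542 in KD, of which 537 came from 1 cell. Ighg2b had 29 and 1398 UMIs, with 1372 of the latter in 1 cell, and Ighg2c had 2 and 2607 UMIs, with 2606 of the latter in 3 cells. In KD granulocytes 664 of 677 Ighg1 UMIs were in 1 cell. Their ratios are ratios of these cells.

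Over the 20 sums of class and library, the patterns most like each member were found by Pearson r of log2(CPM + 1) among 10174 genes. For Fcgr1 these were Gbp2b (0.96), Aif1 (0.95) and Adap2 (0.94), for Fcgr3 Clec4a2 (0.94), Hk3 (0.94) and Igsf6 (0.93), and for Fcgr4 Klra2 (0.97), Treml4 (0.95) and Slc11a1 (0.95). For Fcer1g they were Tyrobp (0.94), Cers6 (0.92) and Nos1ap (0.89), and for Fcgr2b Cd93 (0.92), Pitpna (0.88) and Thbd (0.86). Among the members themselves r ran from 0.68 to 0.89 between Fcgr1, Fcgr3, Fcgr4 and Fcer1g, and from 0.14 to 0.39 between Fcgr2b and any of them. The points share 2 libraries and their free RNA, and r is given as a description only.

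Fcgr2b and Fcgr3 share some transcript sequence, and how reads over it were counted was not tested. Of the 32-base words in the last 500 bases of GENCODE transcripts on GRCm38, where 3′ reads fall, 73 of 1488 of Fcgr2b (4.91%) also occurred in Fcgr3 and 4 of 958 of Fcgr3 (0.418%) in Fcgr2b. Fcgr1, Fcgr4 and Fcer1g shared 0 words with another member. The annotation behind the counts may differ from these transcripts.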

How the data were processed

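Whole-number UMI counts per gene and barcode, deposited by the authors as 1 matrix per library, were used as they stood. Per the labels, reads of a 10x 3′ (v3.1 chemistry) assay had been aligned and counted with Cell Ranger 7.1.0 on GRCm39, and Seurat 5.1.0 in R 4.4.1 is named. Each library pooled the lesions of 3 mice after positive selection of CD45+ cells. Total depth was 67207234 UMIs over 10416 Ctrl barcodes and 64444715 UMIs over 10943 KD barcodes.

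Cells with 200 to 6000 genes, at most 30000 UMIs and at most 10% mitochondrial UMIs were kept, 19999 of 21359. They were clustered in Seurat 5.3.0 (R 4.3.3) with 2000 variable genes without the members, 20 principal components and a resolution of 0.5. Macrophages, granulocytes, dendritic cells and T and NK cells were clustered again. A cluster was named from at least 3 fixed markers, and not where genes of another type led it or its depth was very low. How macrophage state genes and low depth count in that rule was settled after clusters were seen. Clusters of 949 and 355 and of 172 and 184 cells (Ctrl and KD) stayed unnamed, and sub-clusters of 1472 Ctrl and 986 KD cells were left out. Of these, 1295 and 595 cells were in T and NK sub-clusters. They included a sub-cluster of 737 and 371 cells that held Cd28 and Cd8b1 and had Ccl5, Ly6c2 and Gzma among its leading genes. The T cell class lacks it. Doublets were kept, and 771 Ctrl and 830 KD cells with the highest Scrublet scores (scanpy 1.11.5) were left out as an alternative.

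UMIs were summed per class and library and scaled to CPM (numpy 2.4.6, scipy 1.17.1). Intervals were exact Poisson for levels, Clopper-Pearson for shares and conditional binomial for ratios, at 95%, and the functions were tested on simulated data. With 1 library per group no p-value was computed. A gene with at least 100 UMIs was called past 1.5-fold where its interval left out 0. For shares, cells were thinned to 1500 UMIs, and shallower cells were left out. Named genes were the 5 members, the 3 highest and 3 lowest genes of the pathway lists in macrophages, list genes past 1.5-fold in NK or B cells, and the 3 genes of most like pattern. The members and lists were chosen with earlier results of these data known. Promoter windows came from RefSeq tables on GRCm38.p6, another build than that of the counts, matched by symbol for 5 of 5 members. Alternatives were another filter, resolution, scaling, weighting, thinning, class rule and doublet removal. With another filter or resolution, or with the members among the variable genes, classes came straight from named clusters and no sub-clusters were left out.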

Additional observations from a re-analysis of the deposited data

Results flagged for a closer look

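Some members had ratios on opposite sides of 0 in different cell classes, with intervals for counting error that left out 0 on both sides. These differences between classes were not tested, since each group was 1 library. Fcgr2b had a log2 ratio of 0.36 in macrophages and 0.28 in cDCs, but of -0.35 in granulocytes and -0.27 in endothelial cells. The values in granulocytes and cDCs changed sign under other settings, while those in macrophages and endothelial cells did not. Fcgr3 had a log2 ratio of 0.12 in macrophages and 1.11 in endothelial cells, and of -0.37 in cDCs. The values in endothelial cells and cDCs changed sign under other settings. Fcer1g had a log2 ratio of 0.14 in NK cells, against -0.37 in macrophages, -0.43 in Kupffer cells, -0.13 in granulocytes and -0.97 in B cells. The value in NK cells was -0.0040 with classes from each cell's own marker UMIs, and Fcer1g of B cells, at 73.4 and 59.1 UMIs per 100 C1q UMIs, stood near the 64.2 and 56.8 of macrophages.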

How the results depend on the processing

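No library could be left out, since each group had 1. No paired analysis was possible because each group was 1 library and no test was made. In macrophages all 5 genes kept their direction in 12 of 12 alternatives, with log2 ratios from -0.49 to -0.29 for Fcgr1, 0.30 to 0.41 for Fcgr2b, 0.11 to 0.18 for Fcgr3, -0.87 to -0.77 for Fcgr4 and -0.39 to -0.31 for Fcer1g. Fcgr2b kept its direction in 8 of 8 alternatives in B cells (0.11 to 0.48) and in endothelial cells, and Fcgr3 of NK cells in 8 of 9. A stricter cell filter, with no sub-clusters left out, gave -0.33 for Fcer1g in macrophages and 4 pathway genes past 1.5-fold in place of 2. Equal weight per cell gave 0.40 for Fcgr2b, -0.80 for Fcgr4 and -0.31 for Fcer1g. Thinning to 1500 UMIs gave -0.77 for Fcgr4, -0.33 for Fcer1g and -0.69 for activating over inhibitory UMIs in macrophages, -0.35 for Fcgr2b and -0.082 for Fcgr3 in endothelial cells, and 0.20 for Fcgr3 in cDCs. Reweighting KD macrophages to the Ctrl sub-clusters gave -0.29 for Fcgr1, 0.30 for Fcgr2b, -0.79 for Fcgr4, -0.32 for Fcer1g and -0.64 for activating over inhibitory UMIs. Without the 2 sub-clusters mostly from 1 library Fcgr4 was at -0.81. Without cells that held a UMI of another lineage, the values were -0.42 for Fcgr1, 0.41 for Fcgr2b, 0.18 for Fcgr3, -0.78 for Fcgr4 and -0.35 for Fcer1g. Classes from each cell's own marker UMIs gave -0.42 for Fcgr1 and -0.39 for Fcer1g in macrophages, -0.18 for Fcgr2b and -0.76 for Fcgr3 in endothelial cells, 0.16 for Fcgr2b in granulocytes, -0.049 for Fcgr2b in cDCs and -0.0040 for Fcer1g in NK cells. Fcgr2b of granulocytes was at 0.11 at a resolution of 1.0 with no sub-clusters left out. It was at 0.42 with KD reweighted to the Ctrl sub-clusters, and Fcgr3 of endothelial cells was at -1.47 without likely doublets. The unnamed cluster with macrophage markers, added to the macrophages, gave 0.17 for Fcgr3, -0.31 for Fcer1g and 1 pathway gene. The last reweighting and the added cluster were chosen after seeing the data. Activating over inhibitory UMIs stood at -1.21 with Fcgr4 alone and -0.25 with Fcgr3 alone. The share of macrophages with a UMI, KD minus Ctrl, was 11.6 percentage points for Fcgr2b, 7.57 for Fcgr3 and -8.45 for Fcgr4 without thinning, and 0.888 for Fcgr3 after thinning to 1000 UMIs, against 7.82, 3.75 and -14.8 as reported. The cause of these changes was not tested. Counts under 100 UMIs, such as those of Fcgr3 in NK cells, limited what could be seen outside the myeloid and endothelial classes.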
